A study of Homo sapiens with 4 samples.

Results

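The interleukin-1 gene cluster on the long arm of chromosome 2 was followed through 4 Hi-C maps of IMR90 fibroblasts, with its bins taken as those of the deposited 200 kb bins that overlap chr2:113450000-113900000 (hg19). These were 3 of 14444 bins, and 10 bins on each side were added, giving 23 bins. The 9 genes of interest, IL1A, IL1B, IL37, IL36G, IL36A, IL36B, IL36RN, IL1F10 and IL1RN, all had their annotated bodies in the 3 bins, so genes within 1 bin share every value and are not separate measurements. IL36B spans the edge between the middle and the right bin.

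IMR90 is an established line of human lung fibroblasts. All cells carried ER:HRAS G12V in the pLNCX2 vector, a RAS oncogene fused to the hormone-binding part of the oestrogen receptor, which becomes active when 4OHT is added. Growing cells (Grow) had no 4OHT, and cells in oncogene-induced senescence (OIS) had 100 nM 4OHT for 6 days. In Grow-shA1 and OIS-shA1, the cells also carried the pMSCV miR shHMGA1 vector, a short hairpin against HMGA1, a small chromatin protein that binds AT-rich DNA. Both shA1 conditions had 2 samples and 1 deposited map each. The maps of Grow and OIS had been made earlier, in other experiments of this group. Each condition is thus 1 map, without replicates, and no difference between conditions could be tested. Any comparison of an shA1 map with a map without shA1 also compares data sets, and these cannot be told apart. Contact maps hold no measure of HMGA1 itself, so the knockdown was not checked here.

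IL1A and IL1B encode the main interleukin-1 agonists, which signal through a shared receptor, and both are known components of the senescence-associated secretory phenotype (SASP). IL1A acts upstream in that programme and drives other inflammatory secreted factors. IL36G, IL36A and IL36B encode agonists of the related IL-36 receptor, IL36RN and IL1RN encode antagonists that occupy the receptors without signalling, IL37 encodes a factor that dampens inflammation, and IL1F10 encodes a further family member. Chromatin of active, gene-rich segments tends to contact other such segments (compartment A), while gene-poor, silent segments contact each other (compartment B). In OIS, heterochromatin gathers into dense nuclear foci, and HMGA1 is a structural part of these.

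The bins are bounded by HindIII sites, since the libraries were cut with this enzyme, and the edges inside the locus and at its right end show where the genes were divided. All 1198 internal bin edges of chromosome 2 fell at such a site. The edge sequences are shown in the forward strand of GRCh37, which is hg19, with the HindIII site AAGCTT in capitals.
Edge between the IL1A and IL1B bin and the IL37 and IL36 bin, chr2:113594458-113594513: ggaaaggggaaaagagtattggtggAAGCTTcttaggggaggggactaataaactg
Edge between the IL37 and IL36 bin and the IL1RN bin, chr2:113798751-113798806: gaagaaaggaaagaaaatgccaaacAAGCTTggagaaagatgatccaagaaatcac
Right edge of the IL1RN bin, chr2:113999302-113999357: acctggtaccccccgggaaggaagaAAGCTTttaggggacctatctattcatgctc
The edge between the IL1A and IL1B bin and the IL37 and IL36 bin lay at IL1B. IL1B is on the minus strand at chr2:113587328-113594393, and its annotated start was 90 bases from the right end of its bin. The 300 base promoter window of IL1B in the RefSeq promoter table (table build GRCh38.p14, matched exactly to GRCh37 at chr2:113594307-113594606) is shown because it holds this site, in capitals, beginning 132 bases before the RefSeq start.
IL1B promoter, minus strand: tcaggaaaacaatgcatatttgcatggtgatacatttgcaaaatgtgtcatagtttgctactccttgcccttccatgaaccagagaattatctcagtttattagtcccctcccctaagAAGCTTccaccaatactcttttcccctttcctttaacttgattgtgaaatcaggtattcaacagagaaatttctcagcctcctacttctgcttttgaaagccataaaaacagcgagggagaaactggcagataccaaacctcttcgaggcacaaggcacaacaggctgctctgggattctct
A HindIII site, AAGCTT on either strand, was in 2051 of 35116 promoter windows of the table (5.84%). The body of IL1B was therefore measured in the left bin and its immediate upstream DNA in the middle bin. IL1A, at chr2:113531502-113542070 on the minus strand, started 52413 bases from the right end of the left bin, and its contacts were assigned whole to that bin.

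The left bin, chr2:113400166-113594483, is called the IL1A and IL1B bin below. It also holds SLC20A1, a phosphate transporter gene, CKAP2L, a mitotic spindle gene, and NT5DC4. The IL37 and IL36 bin, chr2:113594484-113798776, holds IL37, IL36G, IL36A and part of IL36B and no other protein-coding gene. The IL1RN bin, chr2:113798777-113999327, holds the rest of IL36B, IL36RN, IL1F10, IL1RN, PSD4 and part of PAX8, a developmental transcription factor gene. To the left lie bins with BUB1, BCL2L11, ANAPC1, MERTK, TTL and POLR1B, and to the right 4 bins with PAX8, SLC35F5 and ACTR3 followed by 6 bins with no protein-coding gene other than DPP10, a very long gene best known from neurons. G and C made up 44.1%, 42.2% and 46.9% of the 3 locus bins, against a median of 39.4% over 1153 chromosome 2 bins, and runs of 10 or more A or T numbered 311, 315 and 225 per 100 kb against a median of 413.

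Each map gives a contact score for pairs of bins on one chromosome, corrected by the authors for distance, positive where contact was above and negative where it was below that of other pairs at the same distance. The base of the score is not stated, so differences are given in score units and not as folds. Distal contact of a bin is its mean score with A or B bins (of the Grow map) more than 2 Mb away, local contact its mean score from the neighbouring bin to 2 Mb, and both use pairs listed in all 4 maps. A bin is said to have risen or fallen when its difference was at least 0.2, and the share of all bins doing so is given as background. The number of listed pairs ranged from 4032189 (OIS-shA1) to 4631800 (Grow), and over distal pairs of chromosome 2 the SD of the score was 0.716 in Grow, 0.729 in Grow-shA1, 0.898 in OIS and 0.83 in OIS-shA1. The maps thus differ in spread as well as in mean.

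Listing was uneven, and this touches every distal value with B bins. Of 1869 distal B pairs of the locus, 79.3% were listed in Grow, 67.0% in Grow-shA1, 59.1% in OIS and 50.9% in OIS-shA1. With A bins the shares stayed between 88.9% and 95.2%. The IL1A and IL1B bin was the sparsest, with 400 of 624 B pairs listed in Grow, 321 in Grow-shA1, 224 in OIS and 222 in OIS-shA1. Locus pairs with B bins that were listed in Grow and not in OIS (508 pairs) had a mean Grow score of -0.597, lower than the -0.482 of the 975 pairs listed in both. Over all A bins of chromosome 2 the share listed with B bins was 73.3% in Grow and 60% in OIS. The loss was larger at the locus by these shares, and its part in the differences was tried only through the alternative treatments of unlisted pairs.

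The whole locus was in compartment A in every map. The compartment score, the first principal component of the chromosome 2 correlation matrix scaled to a root mean square of 1, was 1.15 for the IL1A and IL1B bin in Grow, 1.00 in Grow-shA1, 0.649 in OIS and 0.675 in OIS-shA1. Among chromosome 2 bins this put it at percentile 91.2 in Grow and 65.1 in OIS. By this score, the bin with both agonist genes was among the stronger A bins in Grow. It ranked lower in OIS and in OIS-shA1 (percentile 66.3). These percentiles are over A and B bins together, which were 525 and 628 bins in Grow. The IL37 and IL36 bin changed little, at 1.13, 1.09, 1.03 and 0.938 in the same order. The IL1RN bin went the other way, at 0.669, 0.692, 0.968 and 0.983, from percentile 67.2 in Grow to 87.7 in OIS. The IL1A and IL1B bin thus had the highest compartment score of the 3 bins in Grow, the IL37 and IL36 bin had it in Grow-shA1, and the IL1A and IL1B bin had the lowest in both OIS maps. The margin in Grow was small (1.15 against 1.13), and this order turned over when the score was taken per chromosome arm. Unlisted pairs entered the compartment score as 0. The IL1A and IL1B bin had 79.4% of its pairs listed in Grow and 60.6% in both OIS maps. From Grow to OIS, the IL37 and IL36 bin went from 91.1% to 79.9% and the IL1RN bin from 89.7% to 80.1%. As an alternative, unlisted pairs were filled with the mean score at the same distance, and the 3 locus bins stayed above 0 in every map. The part of listing in the size of the changes was not tested. Of the 23 bins, those right of ACTR3 were in compartment B in every map, with scores between -1.31 and -1.44 in Grow.

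RAS activation lowered the contact of the locus with distal B bins and left that with distal A bins within 0.2 of its level. The mean score with B bins was -0.607 in Grow and -0.844 in OIS, a difference of -0.237 ± 0.0447 (SD over the 3 bins). It fell in 2 of 3 bins, the IL1A and IL1B bin (-1.01 to -1.28, 93 pairs) and the IL37 and IL36 bin (-0.526 to -0.777, 234 pairs), while in the IL1RN bin the difference was -0.187 (270 pairs). Over all 13565 bins tested 27.0% fell by as much, so a fall of this size was common. Over these shared pairs the level itself set the IL1A and IL1B bin apart. Its Grow score with B bins was at percentile 2.78 of all bins and its OIS score at percentile 0.929. In OIS its score was -0.928 over all pairs listed in that map, still the lowest of the 3 bins. With unlisted pairs counted as 0 it was -0.333 in OIS, against -0.475 in the IL37 and IL36 bin and -0.320 in the IL1RN bin. The level in OIS thus depended on how unlisted pairs were treated.

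The fall of the locus mean with B bins was no longer past 0.2 under 7 of 13 alternatives. It was -0.170 with a limit of 5 Mb, -0.178 as a median over pairs, -0.195 with extreme scores limited, -0.199 with maps centred alike and -0.133 over all pairs listed in each map. With maps scaled to a common SD at each distance, the OIS minus Grow difference with B bins was -0.0717, and with unlisted pairs counted as 0 it was 0.0376, since a pair that dropped out of the OIS map then counts as average. In the IL1A and IL1B bin the difference was -0.273 over the pairs shared by all maps, -0.0444 over all pairs listed in each map and 0.233 with unlisted pairs as 0. In the IL37 and IL36 bin it was -0.250, -0.211 and -0.0628.

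With A bins, the locus scored 0.106 in Grow and 0.141 in OIS, a difference of 0.0353 ± 0.0985 (SD over the 3 bins), which is smaller than the spread between the bins. No locus bin rose or fell, against a background of 5.35% rising and 25.2% falling. Among A bins of all chromosomes, to which the locus bins belong, 5.91% rose and only 3.09% fell. The bins were nevertheless ordered along the locus, at -0.0622 for the IL1A and IL1B bin, 0.0335 for the IL37 and IL36 bin and 0.135 for the IL1RN bin, in the order of their change in compartment score.

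In cells with shA1, the response to RAS kept its direction and its pattern over the bins differed. The OIS-shA1 minus Grow-shA1 difference with B bins was -0.192 ± 0.147 (SD over the 3 bins), at -0.0225 in the IL1A and IL1B bin, -0.286 in the IL37 and IL36 bin and -0.267 in the IL1RN bin. It fell in 2 of 3 bins against a background of 23.9%. The difference of both RAS responses was therefore 0.250 in the IL1A and IL1B bin, and -0.0354 and -0.0805 in the other bins. The first was at percentile 96.9 of all bins, where 6.30% rose by 0.2 or more. Among A bins of all chromosomes 10.8% rose by as much, with a median of 0.0607. This value for the IL1A and IL1B bin came from 93 of 624 B pairs and was 0.0978 over all pairs listed in each map and -0.0535 with unlisted pairs as 0.

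Comparing shA1 with the matched map without it, contact with B bins differed by -0.0769 ± 0.129 in OIS and by -0.122 ± 0.0522 in Grow (SD over the 3 bins). No locus bin fell by 0.2, against 9.32% of bins in OIS and 4.57% in Grow. The OIS-shA1 minus OIS difference was 0.0712 in the IL1A and IL1B bin, -0.144 in the IL37 and IL36 bin and -0.158 in the IL1RN bin. Since the OIS map enters this difference with a minus sign and the OIS minus Grow difference with a plus sign, some return towards Grow is built into such a pair of values. The IL37 and IL36 bin and the IL1RN bin showed no return, and their contact with B bins was lowest in OIS-shA1.

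**Figure D1:**
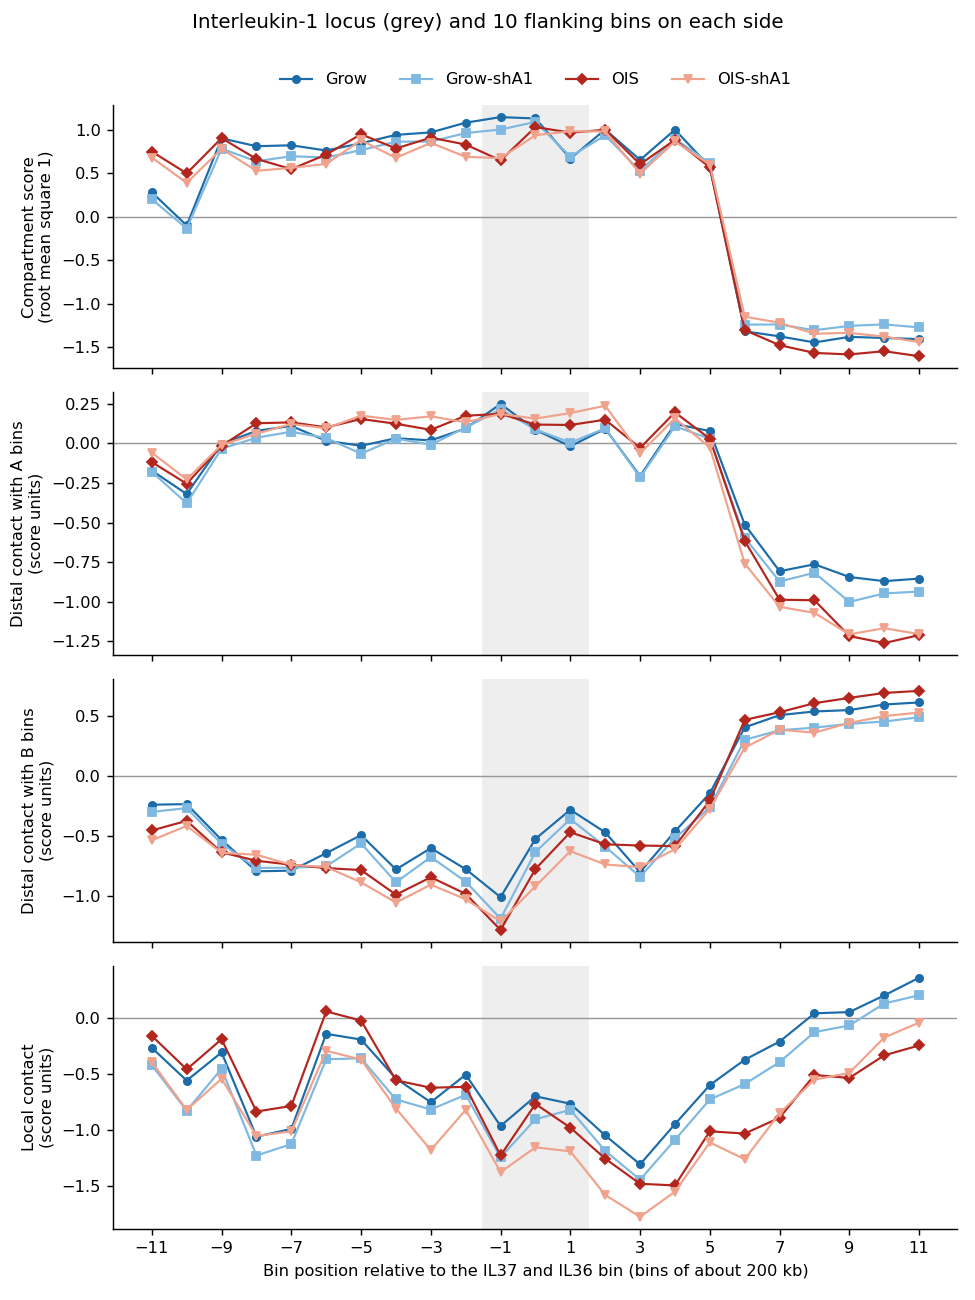
Compartment score and mean distal and local contact (score units) of each of the 23 bins in the 4 maps, by bin position relative to the IL37 and IL36 bin; each point is 1 bin in 1 map and the locus is shaded grey. Over pairs listed in all 4 maps, the IL1A and IL1B bin (position -1) has the lowest contact with B bins of the region in every map. Compartment scores fall from 0.574 to -1.31 in Grow across the right boundary at position 5 to 6.

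Close to the diagonal, contacts inside the locus rose with RAS while those with the B bins to its right fell. The 3 pairs among the locus bins averaged 0.552 in Grow, 0.408 in Grow-shA1, 0.865 in OIS and 0.912 in OIS-shA1. Each of the 3 pairs was higher in OIS than in Grow and higher in OIS-shA1 than in Grow-shA1. The difference was 0.314 ± 0.164 without shA1 and 0.504 ± 0.117 with it (SD over the 3 pairs). Pairs of A bins at 1 to 2 bins anywhere on chromosome 2 had a median OIS minus Grow difference of -0.0653 with an SD of 0.23 over 815 pairs.

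The IL1A and IL1B bin carried the largest of these values within the locus. Its contact with itself was 1.35 in Grow, 1.08 in Grow-shA1, 1.98 in OIS and 1.85 in OIS-shA1. Its contact with the IL1RN bin, a pair of bins with agonist and antagonist genes, was -0.741, -0.789, -0.243 and -0.154, higher by 0.498 in OIS than in Grow. With the neighbouring bin to the left, which holds TTL, POLR1B and CHCHD5, it rose from 1.33 in Grow to 1.92 in OIS. Its strongest neighbour in all 4 maps was the IL37 and IL36 bin, at 1.92, 1.68, 2.10 and 2.09, a pair that includes the edge in the IL1B promoter. The contact of A bins with themselves on chromosome 2 had a median OIS minus Grow difference of -0.135.

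To the right, the locus is separated from the 6 B bins around DPP10 by 4 A bins. Contact between the locus and these B bins was already low in Grow, at -1.73 over 16 pairs, and was -1.94 in Grow-shA1, -2.96 in OIS and -3.36 in OIS-shA1. The fall with RAS was -1.23 ± 0.384 without shA1 and -1.42 ± 0.402 with it (SD over pairs), and 16 of 16 pairs were lower in both. For A and B bins 5 to 12 bins apart on all of chromosome 2, the median difference was -0.316 with an SD of 0.713 over 3762 pairs. With the 4 A bins in between, the locus differed by -0.21 ± 0.366 (SD over pairs), with 8 of 12 pairs lower in OIS. The nearest of these, with PAX8, was higher in OIS with each of the 3 locus bins, by 0.242, 0.322 and 0.124 from left to right. Lowest with the B bins was the IL1A and IL1B bin, from -2.78 to -4.46 over its 4 pairs, and its other 2 pairs with these bins were listed in Grow, Grow-shA1 and OIS-shA1 but not in OIS. These scores lie at the bottom of the maps. Its pair with chr2:115400261-115599657 had the lowest distal score of chromosome 2 in OIS (-4.70) and OIS-shA1 (-4.65). Its pair with chr2:114799174-114999113 had the lowest local score in OIS-shA1 (-5.49). How far this shaped the size of the fall was not tested. The bins left of the locus showed a fall with the 6 B bins of -0.95, and the 4 A bins in between -0.602. The fall was thus shared by the A segment as a whole and was larger at the locus. Among the DPP10 bins themselves contact also fell, from 0.587 in Grow to 0.0869 in OIS, against a median of -0.49 for near pairs of B bins on chromosome 2.

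With the 10 bins to the left, the locus scored -0.624 in Grow, -0.754 in Grow-shA1, -0.435 in OIS and -0.709 in OIS-shA1. The OIS minus Grow difference was 0.189 ± 0.346, with 4 of 30 pairs below 0, and these 4 were pairs of the IL1A and IL1B bin. That bin differed by -0.0372, against 0.279 for the IL37 and IL36 bin and 0.325 for the IL1RN bin. OIS-shA1 minus OIS was -0.274 ± 0.338, with 23 of 30 pairs below 0 (SD over pairs). With shA1 the RAS difference was 0.0454. The bins left of the locus moved likewise among themselves, by 0.142 and -0.279, and for A bins 1 to 12 bins apart on chromosome 2 the medians were -0.00193 and -0.155.

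**Figure D2:**
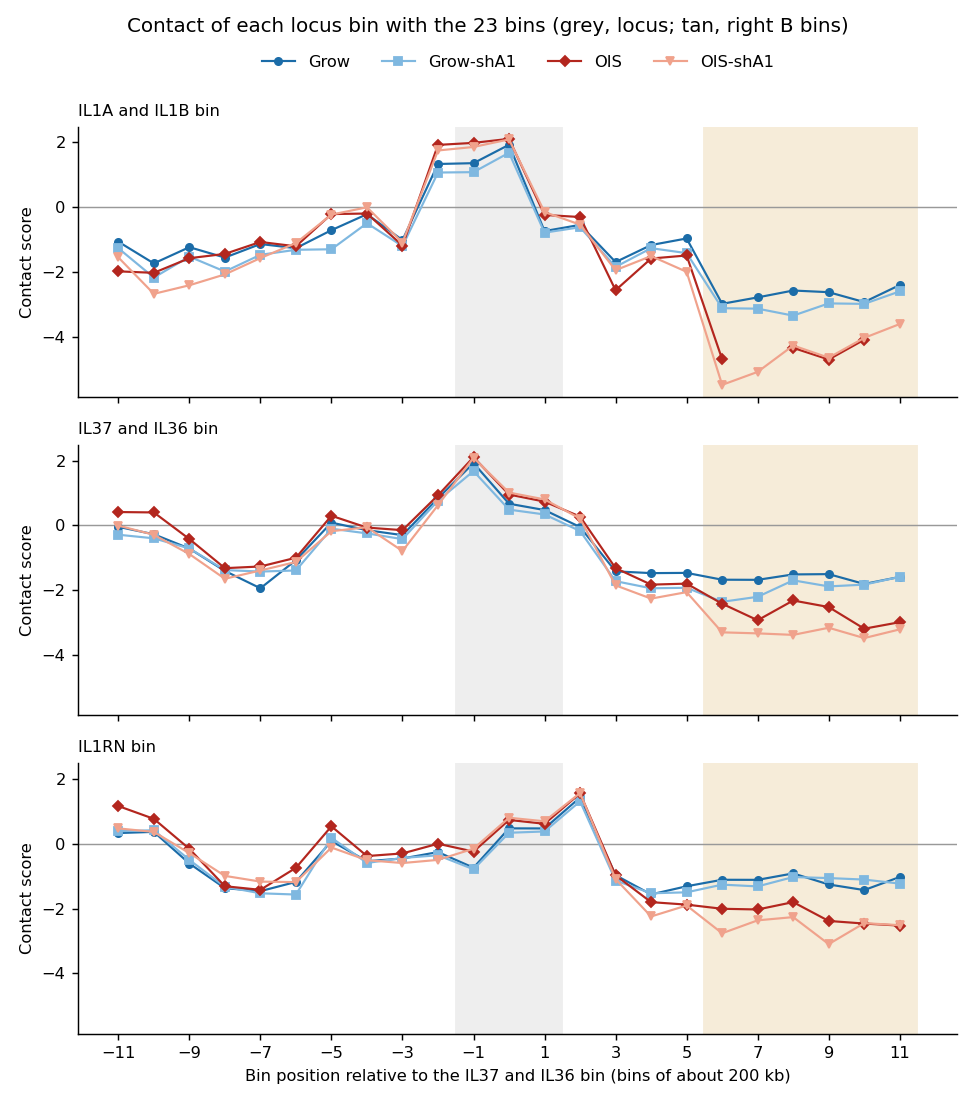
Contact score of each locus bin with the 23 bins in the 4 maps, by position of the partner relative to the IL37 and IL36 bin; each point is 1 pair of bins, grey marks the locus, tan the 6 B bins around DPP10, and missing points are unlisted pairs. The IL1A and IL1B bin falls below -4 with B bins in OIS, while its own contact rises from 1.35 to 1.98.

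Averaged over all partners within 2 Mb, local contact of the locus was -0.812 in Grow, -0.991 in Grow-shA1, -0.993 in OIS and -1.24 in OIS-shA1, and lowest in OIS-shA1 for each of the 3 bins. It fell with RAS in 2 of 3 bins (background 40.7%), with shA1 in OIS in 2 of 3 (background 19.1%), with shA1 in Grow in 2 of 3 (background 6.35%) and with RAS under shA1 in 2 of 3 (background 30.4%). Over chromosome 2 bins alone the shares that fell were higher, at 54.3%, 21.6%, 15.2% and 37.9% in this order. The IL37 and IL36 bin had the largest change with shA1 in OIS, from -0.769 to -1.16, which is at percentile 2.35 of all bins. The IL1A and IL1B bin had the largest change with shA1 in growing cells, from -0.967 to -1.25, at percentile 1.76. With RAS, 3 of the 10 left bins rose (background 13.3%), 9 of the 10 right bins fell, and with shA1 in OIS 10 of the 10 left bins fell. The median over all local pairs of chromosome 2 differed by -0.230 between OIS and Grow and by -0.130 between Grow-shA1 and Grow, and against these medians the locus differed by 0.0483 and -0.0501.

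Insulation, the mean score between 5 bins on either side of an edge, could be taken at 17 of 24 edges where all pairs were listed. At the right edge of the locus, after the IL1RN bin, it was -1.28 in Grow, -1.44 in Grow-shA1, -1.63 in OIS and -2.05 in OIS-shA1. This was at percentile 3.09 of 1003 chromosome 2 edges in Grow, 2.69 in Grow-shA1, 5.68 in OIS and 2.29 in OIS-shA1. At the left edge the values were -0.67, -0.785, -0.455 and -0.777. OIS minus Grow was thus -0.348 at the right edge and 0.215 at the left edge, while OIS-shA1 minus OIS was negative at both, at -0.421 and -0.321. At the edge in the IL1B promoter, insulation was -0.706 in Grow and -0.638 in OIS, a smaller difference than at either outer edge. The median difference over all edges was -0.254 between OIS and Grow and -0.0591 between OIS-shA1 and OIS.

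Along chromosome 2, the locus was set against blocks of 25 bins (about 5 Mb), of which 21 had enough listed pairs. The 3 largest rises with RAS were at chr2:89997464-98401135 across the centromere (0.342), chr2:98401136-103399238 (0.337) and chr2:188399267-193401225 (0.249). The 3 largest falls were at chr2:103399239-108401398 (-0.583), chr2:65002925-70000432 (-0.330) and chr2:123400208-128400302 (-0.273). The stretch around the locus, between chr2:108401398 and chr2:118399341, had no block among the 21. The place of the largest fall moved with block size. With blocks of 10 bins it was chr2:115400261-117401702 (-1.42), and with blocks of 50 bins chr2:113400166-123400207 (-0.432). Among the 21 blocks, the one with the largest fall lay directly beside one with a large rise. It was 88.0% B bins where its neighbour was 32.0%. With shA1 the same 6 blocks differed between OIS-shA1 and Grow-shA1 by 0.557, 0.418, 0.194, -0.787, -0.239 and -0.439 in this order, without a change of sign. The left flank had 0.316, 0.469, 0.285, -0.515, -0.0305 and -0.329, so the pattern was that of the wider A segment, except for chr2:65002925-70000432. The right flank, of which 6 of 10 bins are B, had -0.208, -0.162, 0.140, -0.196, -0.244 and 0.0693.

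Blocks with over 50% B bins were lower with RAS in 5 of 5 cases, and the others in 9 of 16. By 0.2 or more, 2 of the 5 and 2 of the 16 fell. The 5 blocks all lie on the q arm, 7.2 to 22.2 Mb from the locus. By arm, 8 of 8 blocks of the p arm were lower in OIS (median -0.0918), against 6 of 13 on the q arm (median 0.00272). In shA1 cells 4 of 8 p arm blocks were lower. OIS-shA1 minus OIS was above 0 in 7 of 8 p arm blocks and below 0 in 4 of 5 blocks with over 50% B bins, a difference that shares the OIS map with OIS minus Grow. Across the 21 blocks, as a description, the Grow score of the locus had a Pearson r of -0.847 and a Spearman rho of -0.799 with the percent of B bins. For the OIS minus Grow change these were weaker, at -0.385 and -0.175. The blocks share the same 3 source bins and maps and are not independent.

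**Figure D3:**
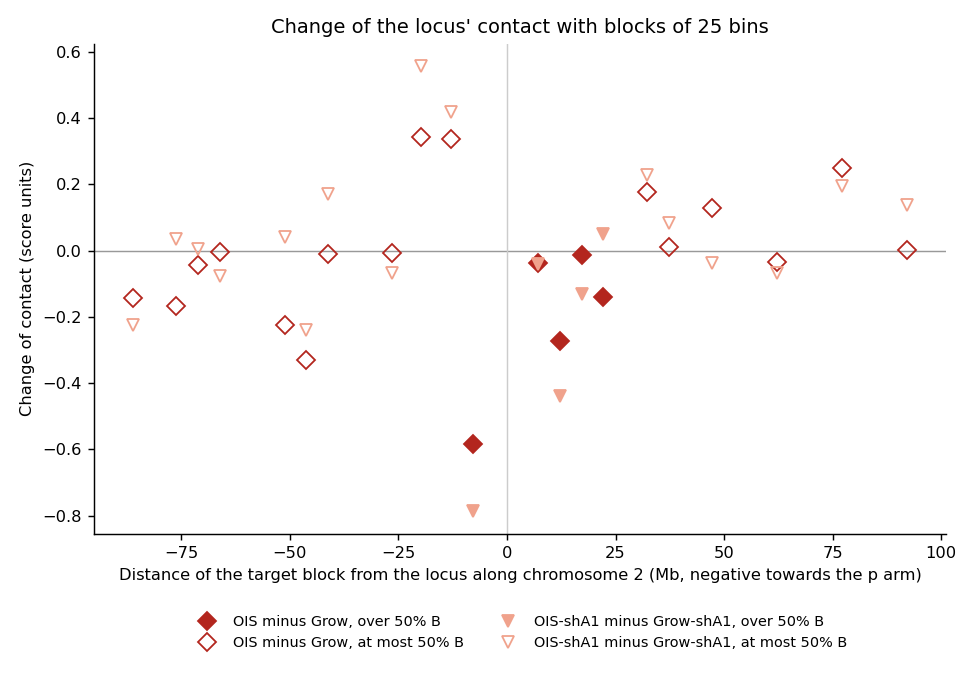
Change of the mean contact of the locus with 21 blocks of 25 bins (score units) by distance from the locus in Mb; diamonds are OIS minus Grow, triangles OIS-shA1 minus Grow-shA1, filled where over 50% of the block's bins are B. The blocks at 12.8 and 19.8 Mb on the p arm side rise by 0.337 and 0.342, and the difference at 7.8 Mb is -0.583.

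The interleukin-1 receptor genes lie 10.6 to 11 Mb from the locus, in the block with the second largest rise. Contact of the 3 locus bins with 3 bins centred on IL1R1, the signalling receptor, and IL1R2, a decoy receptor, was 0.403 in Grow, 0.403 in Grow-shA1, 0.643 in OIS and 0.585 in OIS-shA1. With the bins centred on IL1RL1, IL1RL2 and IL18R1, receptors for IL-33, IL-36 and IL-18, it was -0.0136, 0.0761, 0.363 and 0.238. With IL18RAP, in a B bin, it was -0.275, -0.237, -0.110 and -0.243. The locus and this cluster of receptor genes, some of them for ligands encoded elsewhere, thus had higher contact scores in OIS than in Grow. This was not particular to the locus. With the block that holds these receptor genes, the left flank rose by 0.469 and the locus by 0.337. By 0.2 or more, 5 of 6 receptor genes rose with RAS, in 2 of 3 windows that overlap each other, and their median difference was 0.308. Over 587 such windows on chromosome 2 20.4% rose, and the median was -0.0472. The SD over the 9 pairs of a window was 0.253 to 0.541, as large as the differences. Under shA1 none of the 6 rose (background 26.7%), with a median of 0.162. The difference between both RAS responses fell in 3 of 6 genes (median -0.193, background 23.7%). These were IL1RL1, IL1RL2 and IL18R1, which share a single window and so a single value, -0.215.

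Other secreted factors and matrix genes of chromosome 2 were listed less fully. Of 8 secretory genes 6 could be measured, in 5 windows, and 2 rose with RAS, in 1 window (background 20.4%). These were IGFBP2 and IGFBP5, neighbouring genes for binding proteins of insulin-like growth factors. Their shared window was at 0.108 in Grow, 0.229 in Grow-shA1, 0.709 in OIS and 0.234 in OIS-shA1 over 5 pairs, higher in OIS than in each of the other maps. INHBB, an activin subunit gene, was at 0.0299, 0.144, 0.0348 and 0.462, highest in OIS-shA1. Of 10 matrix genes 6 could be measured and 1 fell with RAS (background 27.6%), FAP, a fibroblast surface protease gene, from -0.0572 to -0.314. COL3A1, a fibrillar collagen gene in the third of the rising blocks, differed by -0.0522. FN1, the fibronectin gene in both lists, was at 0.189, -0.104, 0.169 and 0.380. The median difference with RAS was 0.0553 over the secretory and 0.058 over the matrix genes.

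Long genes known from neurons were taken as B targets, and 3 of 10 could be measured, since most of their pairs were not listed in all maps. These 3 fell with RAS (background 27.6%), DPP10 from -1.65 to -2.88, CNTNAP5 from -0.904 to -1.41 and THSD7B from -0.598 to -1.28. With shA1 they differed by -1.38, -0.588 and -0.325 between OIS-shA1 and Grow-shA1. DPP10 is 1.6 Mb away and so counts as local.

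By distance, the fall with B bins was steepest near the locus. At 2 to 5 Mb the score with B bins was -1.43 in Grow, -1.55 in Grow-shA1, -2.45 in OIS and -2.55 in OIS-shA1, a fall of -1.02 with RAS against a median of -0.411 and an SD of 0.414 over 514 A bins of chromosome 2. At 5 to 10 Mb the fall was -0.434 (A bins, -0.298). At 10 to 20 Mb the difference was -0.0706, smaller than the -0.182 of A bins, and at 20 to 50 Mb it was -0.144 (A bins, -0.0326). With A bins at 10 to 20 Mb, the score of the locus was 0.182 in Grow, 0.153 in Grow-shA1, 0.471 in OIS and 0.557 in OIS-shA1. The rise of 0.288 there, in a class that includes the receptor cluster, was within 1 SD of that of A bins (median 0.106, SD 0.192). At 2 to 5 Mb the score with A bins was -0.0469, -0.0963, 0.0977 and -0.327, lowest in OIS-shA1 and highest in OIS, and OIS-shA1 minus OIS was -0.425 against a median of -0.0806 and an SD of 0.21 over A bins.

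**Figure D4:**
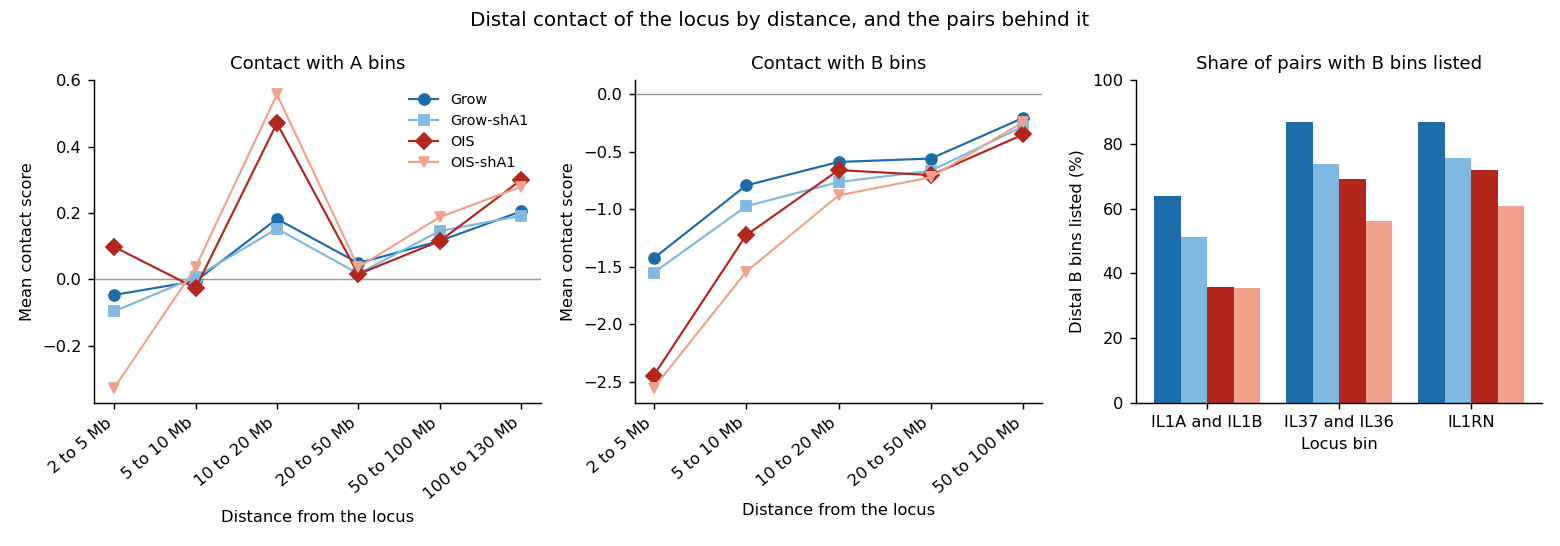
Left and middle, mean contact score of the locus with A and with B bins in classes of distance in the 4 maps; right, percent of distal pairs with B bins that each map lists for each locus bin, in the same colours. Contact with B bins at 2 to 5 Mb falls from -1.43 in Grow to -2.45 in OIS, and the IL1A and IL1B bin has 64.1% of its B pairs listed in Grow and 35.9% in OIS.

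The rest of the interleukin-1 pathway was examined in the same way at its own loci. Of 26 genes for receptors, adaptors, kinases and inflammasome parts, 22 lay in bins that could be measured, 19 bins in all. Contact with distal B bins fell with RAS in 7 of 19 (background 27.0%) and rose in 1 (background 4.57%), with a median of -0.145. Those that fell included IRAK1, a kinase of the receptor complex (-0.543), IL33, a nuclear cytokine of the family (-0.537), TAB2, an adaptor of the downstream kinase (-0.321), NFKB1, an NF-kB subunit (-0.228), and CASP1, the protease that cleaves IL-1 beta (-0.214). IRAK4, which relays the signal from the receptor, rose by 0.209. Local contact fell in 9 of 19 bins (background 40.7%), with -0.732 at IL1R1 and IL1R2 and -0.804 at NFKB1. The difference between these shares and the background was not tested.

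Among 895 bins of chromosome 2 over 2 Mb away, those with an OIS minus Grow profile over blocks most like that of the locus included chr2:145401199-145601242, 31.8 Mb away (r = 0.625 over 38 blocks), with no protein-coding gene, and chr2:111402140-111600768, with BUB1, a mitotic checkpoint kinase gene (r = 0.597 over 39 blocks). The median r was -0.0252. Both were A bins in Grow, with compartment scores of 0.982 and 0.282. Between OIS-shA1 and Grow-shA1 their r with the locus was 0.309 and 0.708. These are correlations over blocks of shared maps and were given no test.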

How the data were processed

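The deposited maps list pairs of bins with a contact score. Per the study's methods the authors mapped Hi-C reads to hg19 with HiC-Pro, normalised the contacts by ICE and corrected them for distance. One map was deposited per condition, and how replicates were combined and the base of the score are not given in the sources used here. Read depth is not in these maps, so the number of listed pairs stands in for it. The members and lists were chosen with earlier results of these data known.

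From these scores, distal and local means, insulation, block means and a compartment score (first principal component of the chromosome 2 correlation matrix) were computed with Python 3.11.15, numpy 2.4.6 and pandas 2.3.3. Genes were placed by GENCODE release 44 on GRCh37 coordinates. The code was tested on simulated data. A difference of at least 0.2 was called a rise or fall. With 1 map per condition no test was possible. Genes named were the members, fixed lists for receptors, secreted factors, matrix, long neuronal genes and the pathway, the 3 highest and lowest blocks and the 3 most alike bins, of which 1 is not reported here. Alternatives covered unlisted pairs, scaling, centring, the distance limits, block size and leaving out each locus bin.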

Additional observations from a re-analysis of the deposited data

Results flagged for a closer look

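The change with shA1 differed in sign between OIS and growing cells for a pair of locus means, and neither difference was tested. Distal contact with A bins differed by 0.0375 with shA1 in OIS and by -0.00272 in Grow, a difference of 0.0402. Contact among the 3 locus bins differed by 0.0465 with shA1 in OIS and by -0.143 in Grow, a difference of 0.190.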

How the results depend on the processing

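No paired analysis was possible because each condition has 1 deposited map and none per replicate. For 15 contact results, 13 alternatives gave 185 values, of which 175 moved by less than the SD over the 23 bins, 9 moved by more and 1, of a result past 0.2, reversed. That SD is wide, since the 23 bins mix A and B bins. For OIS minus Grow it was 0.169 (distal A), 0.149 (distal B) and 0.320 (local). A move within it can change the sign, as for local OIS minus Grow, -0.182 and 0.0483 under common centring. Of the 185, 14 had the other sign and 21 lay on the other side of 0.2, and the 3 results past 0.2 lost that in 15 of 35 values. The OIS minus Grow change with distal B bins was -0.0717 with maps scaled to a common SD and 0.0376 with unlisted pairs as 0, where it reversed. With unlisted pairs as 0, the change with B bins was 0.000527 for Grow-shA1 minus Grow and 0.0430 for OIS-shA1 minus Grow-shA1. Without the IL1A and IL1B bin, the difference of both RAS responses with B bins was -0.0579. Under common centring, Grow-shA1 minus Grow was 0.0463 with A bins and -0.0501 for local contact, and the latter was -0.242 without the IL1RN bin. The local OIS-shA1 minus Grow-shA1 change was -0.505 with a limit of 5 Mb and -0.00634 as a median over pairs. Compartment scores per chromosome arm were 0.900 and 0.903 in Grow and 0.783 and 0.851 in Grow-shA1 for the IL1A and IL1B bin and the IL37 and IL36 bin, and 0.770 in OIS-shA1 for the latter, and all 24 alternative values were above 0. Per arm, the IL37 and IL36 bin was thus above the IL1A and IL1B bin in Grow as well as in Grow-shA1. Unlisted pairs limit every value with B bins, and they entered the main compartment score as 0. The cause of these movements was not tested.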
